A study of Arabidopsis thaliana with 30 samples.

Results

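The D-type cyclins of Arabidopsis thaliana are a family of 10 genes, and all 10 were measured, each by 1 probe set, among 30237 probe sets for 29920 loci. They were taken by locus identifier: CYCD1;1 (AT1G70210), CYCD2;1 (AT2G22490), CYCD3;1 (AT4G34160), CYCD3;2 (AT5G67260), CYCD3;3 (AT3G50070), CYCD4;1 (AT5G65420), CYCD4;2 (AT5G10440), CYCD5;1 (AT4G37630), CYCD6;1 (AT4G03270) and CYCD7;1 (AT5G02110). Their transcripts were followed in leaf 3 of the wild-type accession Col-0 on 30 AGRONOMICS1 arrays, whole-genome tiling arrays hybridised once per sample. Total RNA of whole leaf 3 was used, and all plants were raised in vitro on MS medium, at 22 °C and under days of 16 h light and 8 h darkness.

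Untreated plants were sampled daily from day 8 to day 13 after stratification, the cold period that synchronises germination, with 3 arrays a day and 18 in this time course. A second experiment held 12 arrays in 4 groups of 3. Its seedlings received norflurazon at day 8, or no norflurazon (the control leaves, labelled MS), and leaf 3 was taken at day 9 or day 10, which is 24 h or 48 h later. Norflurazon is a herbicide that blocks carotenoid synthesis and thereby damages chloroplasts in the light.

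D-type cyclins are the regulatory partners of the CDKA kinase, a cyclin-dependent kinase (CDK), at the start of the cell cycle. The kinase complex phosphorylates RBR1, the retinoblastoma-related protein, which then releases E2F transcription factors, and these switch on the genes of DNA synthesis. Inhibitors of the KRP and SIM families bind the complex and block it. In leaves the CYCD3 genes are known to keep cells dividing: plants without them make leaves of fewer and larger cells. Their transcription responds to cytokinin, and other members of the family are known from divisions of the root and of the stomatal lineage.

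Values are the authors' deposited log2 values after robust multi-array averaging (RMA). Differences are log2 differences between the means of 3 arrays, ± the standard error of a limma fit, and a gene is called where its Benjamini-Hochberg adjusted p-value, taken over the 30237 probe sets, is under 0.05. The labels call the 3 arrays of a group biological repeats, and the p-values measure only the spread between them. The median array value was 3.5 to 3.63 for time course arrays and 2.81 to 2.88 for those of the norflurazon experiment, so each experiment was fitted by itself. A probe set is called dim in a group where its mean does not exceed the array median. Probe sets differ in how strongly they bind, so no gene's level is compared with another's. Precision is limited by the number of arrays.

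The marker genes of the sampled leaves changed strongly with age. The mean of 6 leaf proliferation markers, such as AN3 and GRF5, lay at 6.32 to 6.49 on the day 8 arrays and at 3.34 to 3.66 on the day 13 arrays, where 4 of the 6 were dim. The mean of the mesophyll markers, photosynthesis genes, went from 9.70 to 9.95 up to 11.99 to 12.57, and that of the vasculature markers from 3.39 to 3.46 up to 4.82 to 4.87. Markers of the shoot meristem and organ boundary were dim for 7 of 11 probe sets at day 8 and for 9 of 11 on each later day. Of 6 root markers 4 or 5 were dim in every group, although PYK10 (AT3G09260) stood at 9.67 at day 8 and at 4.98 at day 13.

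Between day 8 and day 13, 5 of the 10 D-type cyclin genes fell and 0 rose. All 3 CYCD3 genes were among those that fell, together with CYCD6;1 and CYCD4;1. Over all probe sets 33.7% were called in this comparison, 19.8% as lower and 13.9% as higher. The median change of the 10 genes was -0.40, beside 0.02 over all probe sets. In whole leaves, fewer cells that express a gene and less of its RNA per cell cannot be told apart.

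CYCD3;3 had the largest change of the family. On the log2 scale its 3 arrays read 7.20, 7.14 and 7.08 at day 8, then 6.53, 6.63 and 6.89 at day 9, and 6.25, 5.77 and 5.85 at day 10. They read 5.68, 5.66 and 5.84 at day 11, then 5.26, 5.22 and 5.10 at day 12, and 4.72, 4.67 and 4.71 at day 13. The daily means ran downward in the order of the days, and of the 5 neighbouring pairs of days only days 10 and 11 overlapped. The gene was 5.43-fold lower at day 13 than at day 8, a change of -2.44 ± 0.12 with a 95% interval of -2.70 to -2.18 (limma, adjusted p = 6.73e-10). A moderated F test across all 6 days gave an adjusted p of 4.60e-09.

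CYCD3;2 fell up to day 10, stayed near that level up to day 12 and was lowest at day 13. Its arrays read 8.94, 8.72 and 8.98 at day 8, then 8.45, 8.28 and 8.66 at day 9, and 8.01, 7.89 and 7.96 at day 10. They read 8.18, 8.17 and 8.01 at day 11, then 7.96, 7.96 and 7.89 at day 12, and 7.57, 7.46 and 7.46 at day 13. The values at days 10 to 12 thus lay close together, between higher days before and lower values after, and those of day 11 lay at or above those of day 10. The call from day 12 to day 13 stood close to the threshold (limma, adjusted p = 0.0466), and CYCD3;1 had the same order of daily means. Between days 8 and 13 the change was -1.39 ± 0.11, 2.61-fold, with a 95% interval of -1.61 to -1.16 (limma, adjusted p = 2.87e-08, and 4.59e-07 in the F test).

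CYCD3;1 was lowest at the end of the series, and its largest step came between the last 2 days. Its arrays read 7.68, 7.82 and 7.63 at day 8, then 7.20, 7.35 and 7.79 at day 9, and 7.27, 7.10 and 7.20 at day 10. They read 7.19, 7.48 and 7.25 at day 11, then 6.95, 7.19 and 6.99 at day 12, and 6.15, 6.37 and 6.70 at day 13. Day 13 stood below every earlier array, day 8 overlapped day 9, and 4 of the 5 neighbouring pairs in the order of the daily means overlapped. The change from day 8 to day 13 was -1.30 ± 0.15, 2.47-fold, with a 95% interval of -1.63 to -0.98 (limma, adjusted p = 3.21e-06, and 6.37e-05 in the F test).

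The 3 CYCD3 genes did not decline at the same rate. The log2 ratio of CYCD3;3 to CYCD3;1 within each array changed by -0.266 per day over the 18 arrays, and its ratio to CYCD3;2 by -0.245 per day. Each gave p = 1e-05 in a two-sided permutation test with 100000 resamples, the smallest these can give, and 1.5e-05 after Benjamini-Hochberg adjustment over the 3 pairs. The ratio of CYCD3;2 to CYCD3;1 changed by -0.021 per day (permutation p = 0.516, also after adjustment), so a difference in rate between these 2 genes was not shown. This test was chosen after the values were seen, and how evenly the probe sets respond along the scale was not tested.

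CYCD6;1, which acts in formative divisions of the root under the regulators SHR and SCR, was lowest at day 13. Its arrays read 5.31, 5.14 and 4.94 at day 8, then 5.22, 5.17 and 5.37 at day 9, and 4.90, 4.88 and 4.94 at day 10. They read 4.92, 5.25 and 4.93 at day 11, then 4.51, 4.70 and 4.74 at day 12, and 4.19, 4.25 and 4.35 at day 13. The arrays of days 8 to 11 lay between 4.88 and 5.37, with day 10 below day 9, those of day 12 lay below that range, and those of day 13 lay below day 12. The step from day 9 to day 10 was -0.35 (limma, adjusted p = 0.0813). The steps from day 11 to day 12 and from day 12 to day 13 were -0.38 (0.153) and -0.39 (0.108). None of these steps was called, although the step from day 9 to day 10 was with a filter on dim probe sets (limma, adjusted p = 0.0463). The change from day 8 to day 13 was -0.87 ± 0.12, 1.83-fold, with a 95% interval of -1.11 to -0.63 (limma, adjusted p = 1.17e-05, and 2.39e-05 in the F test).

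The CYCD4 genes were close to the array median on all days of the time course. CYCD4;1 read 3.99, 3.85 and 3.79 at day 8, 4.28, 3.86 and 4.12 at day 9, 3.80, 3.83 and 3.98 at day 10, 4.20, 3.76 and 4.29 at day 11, 3.82, 3.84 and 3.72 at day 12, and 3.45, 3.64 and 3.37 at day 13. CYCD4;2, known to lack the RBR1-binding motif of the family, read 4.32, 3.85 and 3.92 at day 8, 4.55, 3.76 and 4.07 at day 9, 4.35, 4.23 and 4.40 at day 10, 4.24, 4.19 and 4.52 at day 11, 4.07, 3.97 and 3.97 at day 12, and 3.85, 3.46 and 3.56 at day 13. For both genes the day 13 arrays were low, and days 8 to 11 overlapped. In the second gene the day 12 arrays also lay below those of days 10 and 11. The former changed by -0.39 ± 0.14 from day 8 to day 13 (limma, adjusted p = 0.0369). That call was lost in 4 of the 6 fits that left out 1 array: adjusted p was 0.128, 0.069, 0.0923 and 0.128 without day 8 replicate 1, day 8 replicate 2, day 13 replicate 1 and day 13 replicate 3. The latter gave -0.41 ± 0.17 (limma, adjusted p = 0.0829). This became a call without day 13 replicate 1 (0.0464), with replicate number as a block (0.0371) and with a filter on dim probe sets (0.0496). Both probe sets were dim at day 13, so these sizes may be understated, which was not tested.

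The other 4 genes did not pass the test between days 8 and 13. CYCD1;1, which acts in the root at germination, ranged from 4.17 to 5.07 over the 18 arrays, and its difference was 0.30 ± 0.17 with an interval of -0.06 to 0.66 (limma, adjusted p = 0.205). It was called as higher, at 0.48, without day 8 replicate 1 (adjusted p = 0.0424) or without day 13 replicate 1 (0.0422). CYCD2;1, known to respond to sucrose, ranged from 3.86 to 4.65 and gave 0.12 ± 0.15 (interval -0.19 to 0.43), or -0.10 without day 13 replicate 1, and CYCD5;1, which acts in the stomatal lineage, ranged from 3.79 to 4.34 and gave -0.10 ± 0.13 (interval -0.37 to 0.17). CYCD7;1, a cyclin of the guard mother cell, was dim in all 10 groups of the study, with values of 2.59 to 3.04 in the time course, so its level at any age is not resolved.

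**Figure D1:**
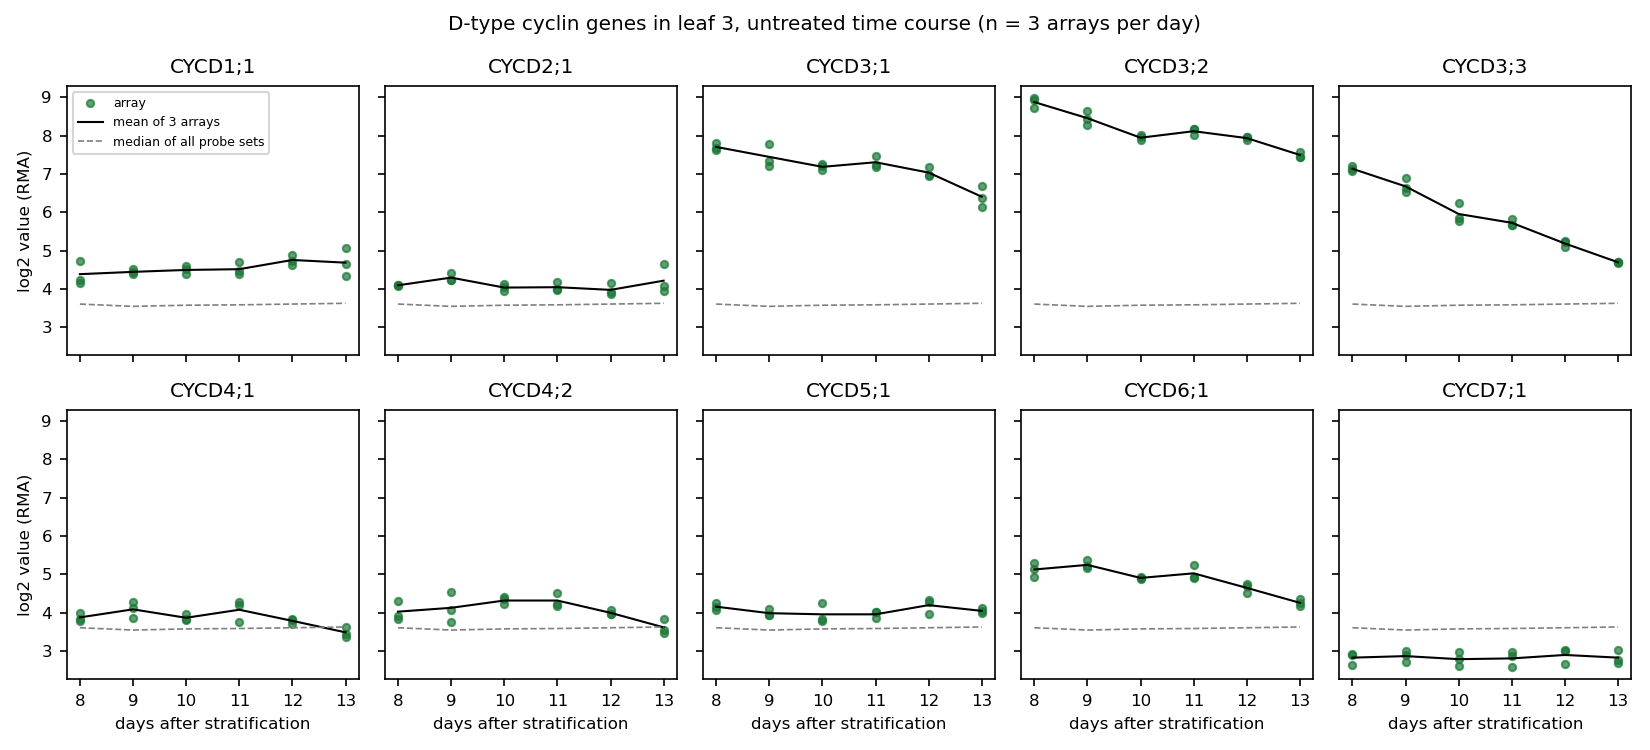
Log2 values of the 10 D-type cyclin genes on each array of the untreated time course against days after stratification. Points are arrays (3 per day), the black line joins the daily means and the dashed line is the median of all probe sets. CYCD3;3 declines at every step from 7.14 to 4.70, the other CYCD3 genes end below all their earlier days, and the last gene, in the lower right panel, lies under the dashed line throughout.

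**Figure D2:**
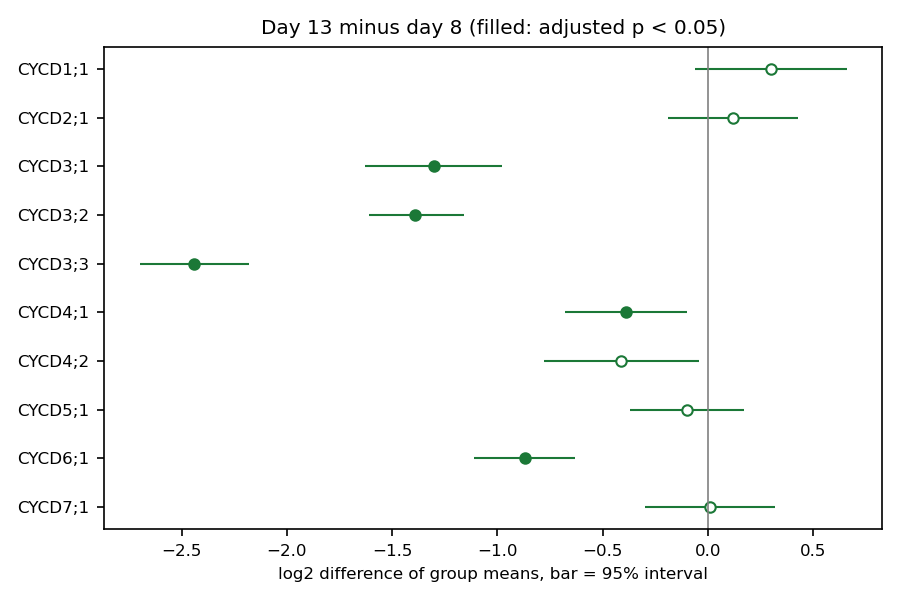
Log2 difference between day 13 and day 8 for each D-type cyclin gene, with 95% intervals of the limma fit from 3 arrays per day. Filled points are the 5 called genes, all to the left of 0, and the interval of CYCD3;3 (-2.70 to -2.18) lies apart from those of the other 9 genes.

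The F test across the 6 days called 6 of the 10 genes, where 32.4% of all probe sets were called. These were the 5 genes above and the second CYCD4 gene. The CYCD4 genes had the weakest of these calls, with adjusted p-values of 0.0176 and 0.0311 for the first and the second. The first was not called without day 13 replicate 1 (0.0658) or day 13 replicate 3 (0.0804). The second was not called without replicate 1 or replicate 3 of day 10 (0.0535 and 0.0596), replicate 3 of day 11 (0.0544), or replicate 2 or replicate 3 of day 13 (0.134 and 0.108). Its highest daily means were those of days 10 and 11, both 4.32, against 4.03 at day 8 and 3.62 at day 13.

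Day by day, the calls fell into 2 of the 5 intervals. From day 9 to day 10 CYCD3;3 fell by 0.73 (-0.73 ± 0.12, limma, adjusted p = 0.0035) and CYCD3;2 by 0.51 (-0.51 ± 0.11, adjusted p = 0.00914). These were 2 of 10 genes, where 7.38% of all probe sets were called and 5.01% were called as lower. The smaller of these changes was not called without day 9 replicate 3 (adjusted p = 0.0562), and neither was called when only the 6 compared arrays were fitted (0.0578 for the larger and 0.074 for the smaller). Over the same interval 5 of the 6 leaf proliferation markers fell and the mean of that list went from 5.28 to 6.16 down to 4.42 to 4.72, and its part in the result was not tested.

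From day 12 to day 13 CYCD3;1 changed by -0.64 ± 0.15 (limma, adjusted p = 0.0488) and CYCD3;2 by -0.44 ± 0.11 (adjusted p = 0.0466). CYCD3;3 changed by -0.49 ± 0.12 and was not called (limma, adjusted p = 0.0556), but was with a filter on dim probe sets (0.0316). Over all probe sets 1.54% were called, 0.857% as lower. For all CYCD3 genes, both CYCD4 genes and CYCD6;1 the 3 arrays of day 13 all lay below those of day 12. The share of all probe sets with such a pattern was not computed, so this does not set the family apart. Both calls stood close to the threshold. In the 6 fits that left out 1 of the compared arrays, the change of CYCD3;1 was called in 1, without day 13 replicate 3. That of CYCD3;2 was called in 0 (adjusted p of 0.0552 to 0.173). With replicate number as a block the adjusted p-values were 0.0509 and 0.056.

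In the other intervals 0 of 10 genes were called by limma. From day 8 to day 9, where 1.28% of all probe sets were called, 2 genes had an unadjusted p under 0.05. They were CYCD3;2 (-0.42, adjusted p = 0.0666) and CYCD3;3 (-0.46, adjusted p = 0.084), whose arrays did not overlap. Without day 9 replicate 3, the array nearest to day 8 for both genes, they were called (0.0187 and 0.0315). From day 10 to day 11 0% of all probe sets were called, and 0 of the 10 genes had an unadjusted p under 0.05. From day 11 to day 12, where 0.695% were called, 3 genes had an unadjusted p under 0.05, and the smallest adjusted p was that of CYCD3;3 (-0.53, adjusted p = 0.0585).

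Within the family, similarity over the 18 arrays was highest between CYCD3;2 and CYCD3;3 (Pearson r = 0.94) and between CYCD3;1 and CYCD6;1 (r = 0.91). The CYCD4 genes gave r = 0.76, and CYCD5;1 stayed between -0.27 and 0.37 with every other member. The arrays share their RNA samples and a common trend with age, so these values are a description. Among all genes with a symbol, those most like CYCD3;3 were the ferredoxin gene FD3 (AT2G27510), the YABBY leaf polarity gene YAB3 (AT4G00180) and the growth-regulating factor GRF3 (AT2G36400), each at r = 0.988. Those most like CYCD3;2 were COBL1 (AT3G02210, r = 0.98), the mismatch repair gene MSH7 (AT3G24495, r = 0.978) and the topoisomerase gene TOP3A (AT5G63920, r = 0.977).

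For CYCD3;1 the nearest profiles were those of CEL2 (AT1G02800, r = 0.958), DUF7 (AT3G62300, r = 0.953) and the histone H2A gene HTA13 (AT3G20670, r = 0.944). For CYCD6;1 they were THO1 (AT5G09860, r = 0.963), SSP5 (AT5G11860, r = 0.952) and IQD26 (AT3G16490, r = 0.95). No profile came as near to the flatter CYCD4 genes. NRPE3B (AT2G15400), MYB106 (AT3G01140) and ABCI16 (AT2G37300) reached 0.861, 0.847 and 0.84 with the first of them, and MLP423 (AT1G24020), NAS4 (AT1G56430) and ELIP1 (AT3G22840) reached 0.832, 0.826 and 0.826 with the second.

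Most of the genes for partners of the D-type cyclins also fell with age. Of the kinase itself and the genes of CDK-activating kinases, 5 of 6 fell between days 8 and 13 and 0 rose (median -0.56). Over all probe sets 19.8% were called as lower in this comparison. Without day 8 replicate 1, or without day 13 replicate 2, 3 of the 6 were called. CDKA;1 (AT3G48750), the kinase that D-type cyclins activate, changed by -0.52 ± 0.13 (limma, adjusted p = 0.0042). CDKD;3 (AT1G18040), which activates CDKs by phosphorylation, changed by -1.14 ± 0.18.

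Of RBR1 and the E2F, DP and DEL factors, 8 of 9 fell and 0 rose (median -0.63). RBR1 (AT3G12280) changed by -0.51 ± 0.12 (limma, adjusted p = 0.00244). The activating factors E2FA (AT2G36010) and E2FB (AT5G22220) changed by -0.59 ± 0.14 and -0.50 ± 0.11, and E2FC (AT1G47870), known as a repressor of division, by -1.14 ± 0.12. DEL3 (AT3G01330) changed by -1.14 ± 0.14 and DEL1 (AT3G48160), a repressor of endoreduplication, by -1.13 ± 0.19. E2FB and DEL1 were dim at day 13, and their changes may be understated.

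Downstream of the D-type cyclins, most genes of DNA synthesis and mitosis fell. Of 19 S-phase genes 17 fell and 0 rose (median -1.14), among them the replication clamp genes PCNA1 (AT1G07370) at -2.49 ± 0.14 and PCNA2 (AT2G29570) at -2.15 ± 0.13 and the origin recognition gene ORC6 (AT1G26840) at -1.94 ± 0.16. Of 10 A-type cyclins, which act in S phase and up to mitosis, 6 fell (median -0.66), led by CYCA2;4 (AT1G80370) at -2.18 ± 0.16, which was dim at day 13. Of 10 B-type cyclins, which drive mitosis, 9 fell (median -1.77), and CYCB1;2 (AT5G06150) and CYCB1;4 (AT2G26760) changed by -3.08 ± 0.22 and -2.70 ± 0.17. Beside these, the median of the D-type cyclins was -0.40, and CYCD3;3 changed by -2.44. CYCD7;1 was dim on both days and the CYCD4 genes at day 13, so this median may be understated. A difference between the lists was not tested.

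The inhibitors moved in both directions. Of 12 KRP and SIM-related genes 5 fell and 2 rose (median -0.19). KRP3 (AT5G48820) changed by -3.52 ± 0.28, whereas SMR1 (AT3G10525), a SIM relative, rose by 2.52 ± 0.24 and KRP1 (AT2G23430) by 1.47 ± 0.20. KRP1 was dim at day 8, so its rise may be understated. Of 13 genes known to regulate D-type cyclin genes, 3 fell and 3 rose (median -0.09). Over all probe sets 19.8% were called as lower and 13.9% as higher, so the counts of the regulators do not set that list apart. ANT (AT4G37750), known to sustain D-type cyclin expression in growing organs and also 1 of the 6 leaf proliferation markers, changed by -2.78 ± 0.18 and OBP1 (AT3G50410), a DOF factor known to act on CYCD3;3, by -2.64 ± 0.20 (dim at day 13). FAMA (AT3G24140), which ends divisions of guard mother cells and restrains the D-type cyclin of these cells, rose by 1.55 ± 0.13 from a dim level at day 8. Guard cell markers rose for 5 of 7 genes and fell for 1, and their part in these results was not tested.

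**Figure D3:**
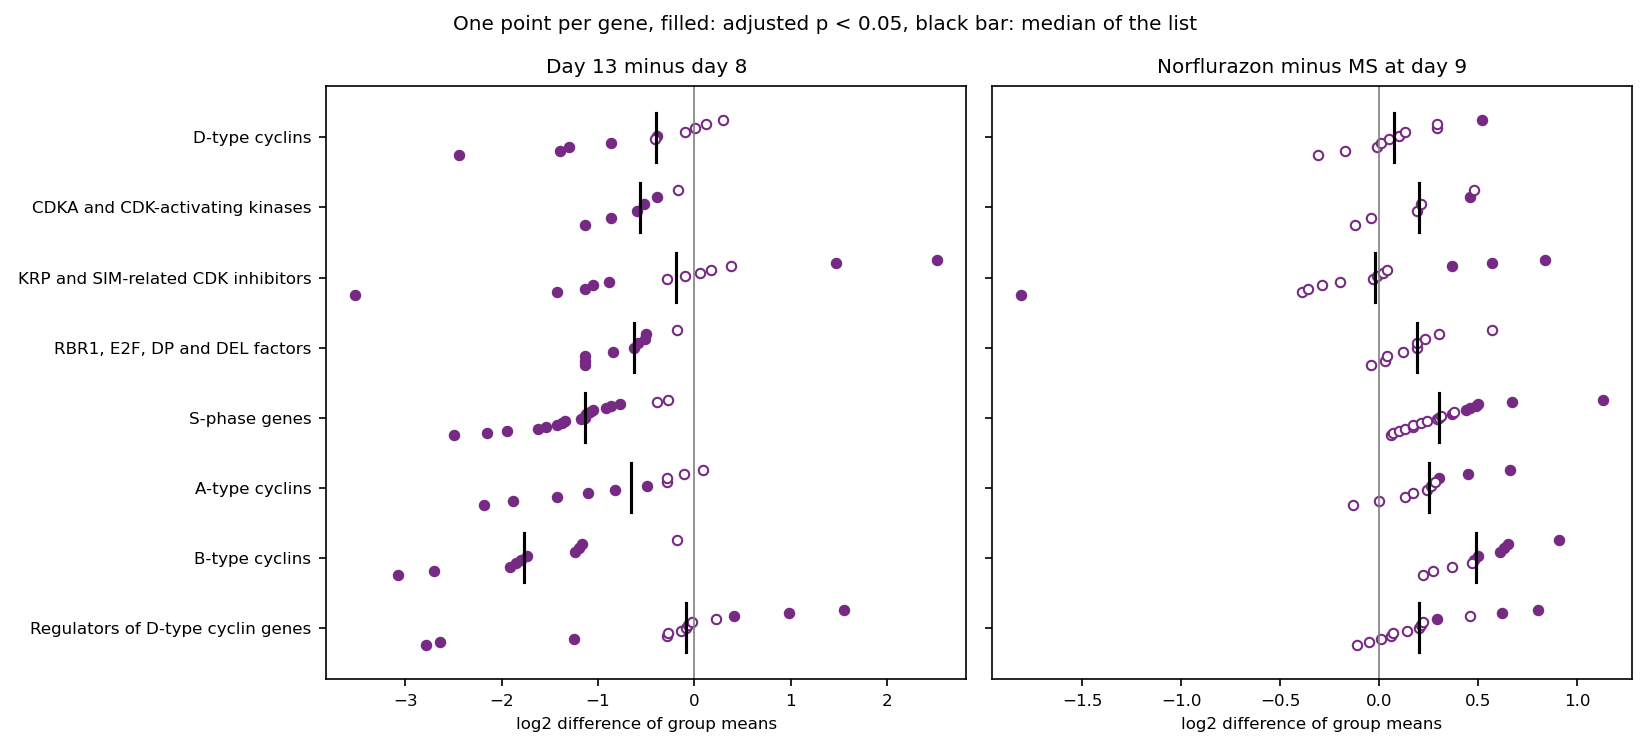
Log2 differences of D-type cyclins and the genes around them between day 13 and day 8 (left) and between norflurazon and MS leaves at day 9 (right), 1 point per gene, on axes of different range. Filled points are called genes and black bars are list medians. B-type cyclins and S-phase genes lie to the left of 0 with age (medians -1.77 and -1.14) and to the right of 0 with norflurazon (0.49 and 0.30), and D-type cyclins have medians of -0.40 and 0.08.

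With norflurazon, CYCD3;3 was the only D-type cyclin gene called at day 9, and it was higher. Its arrays read 7.67, 8.00 and 7.86 with norflurazon at day 9 against 7.39, 7.30 and 7.26 in the MS leaves. All 3 treated arrays lay above all 3 controls, and the difference was 0.52 ± 0.09, 1.43-fold, with a 95% interval of 0.33 to 0.71 (limma, adjusted p = 0.00382). This was 1 of 10 genes called, where 7.43% of all probe sets were called, 3.60% as higher and 3.83% as lower. That count does not set the family apart from all probe sets. The call held without each of the 6 compared arrays in turn.

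At day 10, 48 h after treatment, 0 of the 10 genes were called by limma, where 0.771% of all probe sets were. CYCD3;3 read 7.76, 7.85 and 7.85 with norflurazon and 7.55, 7.51 and 7.41 in the MS leaves. The arrays again did not overlap, the difference was 0.33 ± 0.09 (interval 0.14 to 0.53) and it was the only one of the 10 with an unadjusted p under 0.05 (adjusted p = 0.102). The interaction, which tests whether the effect of norflurazon changed from day 9 to day 10, called 0 of the 10 genes, where 1.95% of probe sets were called, and 2 of the 10 had an unadjusted p under 0.05. For this gene the effect changed by -0.19 ± 0.12 (adjusted p = 0.595), so a difference between the days was not shown.

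The other CYCD3 genes were not called on either day. CYCD3;1 read 8.54, 8.57 and 8.51 with norflurazon and 8.62, 8.62 and 8.40 in the MS leaves at day 9, then 8.58, 8.51 and 8.67 and 8.57, 8.51 and 8.65 at day 10. The groups overlapped on both days, with a difference of -0.01 ± 0.08 at day 9 (interval -0.18 to 0.17) and 0.01 ± 0.08 at day 10 (interval -0.17 to 0.18). CYCD3;2 read 9.27, 9.41 and 9.38 against 9.20, 9.44 and 9.12 at day 9, and 9.29, 9.23 and 9.21 against 9.16, 9.08 and 9.06 at day 10. It overlapped at day 9 (0.10 ± 0.09, limma, adjusted p = 0.604) and not at day 10 (0.15 ± 0.09, adjusted p = 0.5).

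The interaction had an unadjusted p under 0.05 for CYCD2;1 and CYCD6;1. The former read 3.35, 3.54 and 3.36 with norflurazon and 3.75, 3.83 and 3.61 in the MS leaves at day 9, a difference of -0.31 ± 0.10 with no overlap (limma, adjusted p = 0.101). At day 10 it read 3.41, 3.61 and 3.30 against 3.48, 3.30 and 3.25. The groups then overlapped, and the interaction of 0.41 ± 0.14 was not called (adjusted p = 0.216). CYCD6;1 read 4.95, 5.38 and 4.98 against 4.94, 4.96 and 4.54 at day 9, and 4.96, 4.85 and 5.17 against 5.21, 5.27 and 5.21 at day 10. It overlapped at day 9 and lay below its controls at day 10, with an interaction of -0.53 ± 0.20 (adjusted p = 0.237).

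For the remaining 5 genes the norflurazon and MS arrays overlapped at both days, with 1 exception. CYCD4;1 read 3.57, 3.78 and 3.49 with norflurazon and 3.39, 3.44 and 3.62 in MS leaves at day 9, and 3.39, 3.61 and 3.46 against 3.25, 3.43 and 3.67 at day 10. CYCD4;2 read 4.81, 5.33 and 5.02 against 5.05, 5.11 and 5.51 at day 9, and 5.07 on each array against 4.89, 5.04 and 5.22 at day 10. CYCD1;1 had group means of 5.02 to 5.31, and its difference at day 9 was 0.29 ± 0.14 (adjusted p = 0.261). The exception was CYCD5;1, higher at day 10 by 0.20 ± 0.18 without overlap (adjusted p = 0.679), and the gene of the guard mother cell cyclin stayed dim, between 2.20 and 2.48.

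**Figure D4:**
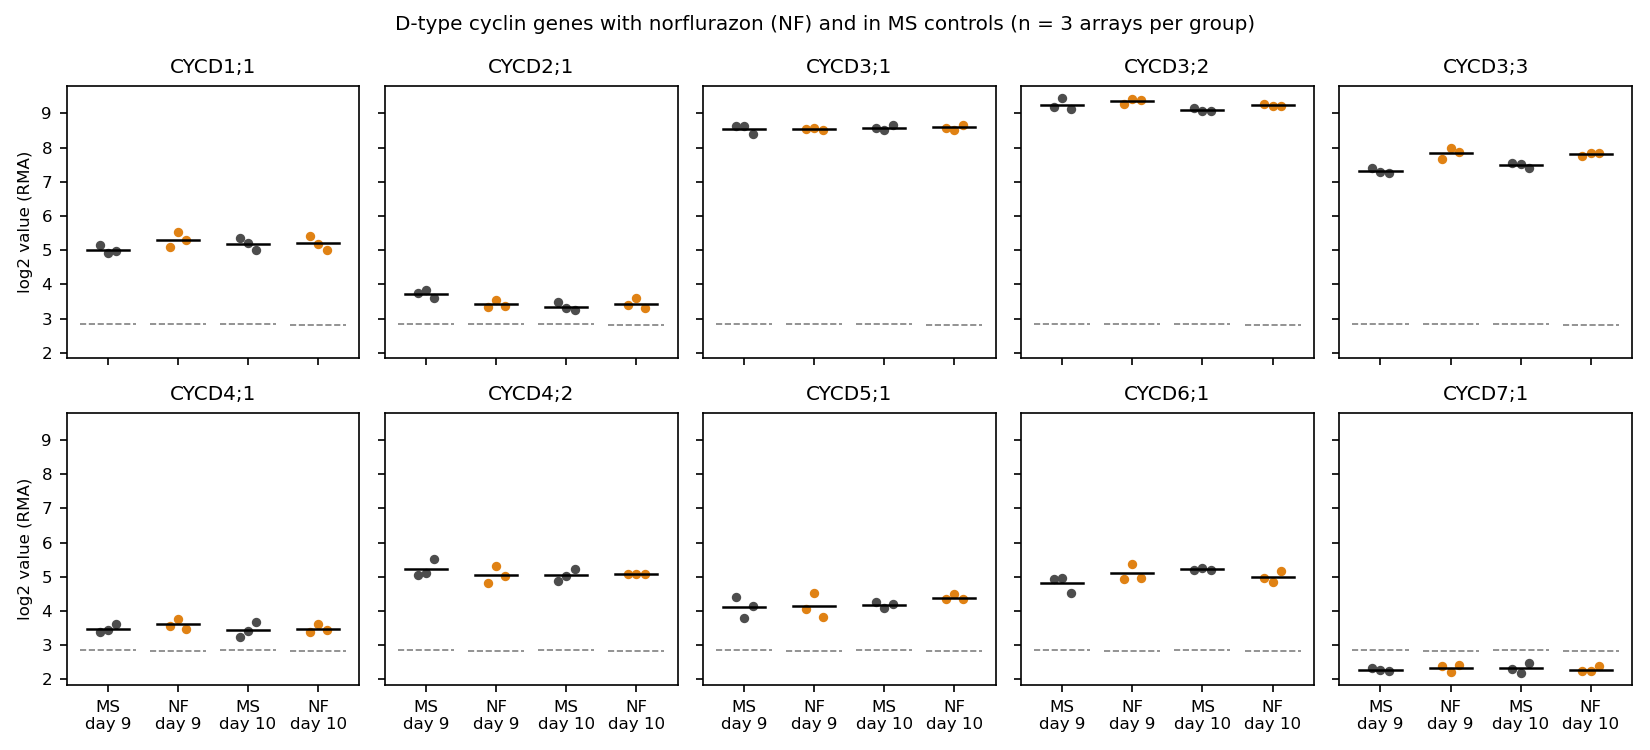
Log2 values of the 10 D-type cyclin genes on each array of the norflurazon experiment, in MS controls (grey) and norflurazon leaves (orange) at days 9 and 10. Black bars are means of 3 arrays and dashed lines the median of all probe sets. CYCD3;3 is higher with norflurazon on both days without overlap (7.84 against 7.32 and 7.82 against 7.49), and the other CYCD3 genes are nearly level.

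Around the D-type cyclins, several cell cycle genes were higher in norflurazon than in MS leaves at day 9. Of 10 B-type cyclins 6 were higher and 0 lower (median 0.49, beside -0.01 over all probe sets), with CYCB1;2 at 0.91 ± 0.10. Of 19 S-phase genes 7 were higher and 0 lower (median 0.30), with PCNA1 at 1.13 ± 0.12, the origin recognition gene ORC2 (AT2G37560) at 0.67 ± 0.14 and the replicative helicase gene MCM7 (AT4G02060) at 0.50 ± 0.08. Of 10 A-type cyclins 3 were higher and 0 lower (median 0.25), with CYCA2;4 at 0.66 ± 0.11. At day 10, 0 genes of these 3 lists were called, where 0.771% of all probe sets were. The medians of the B-type cyclins, S-phase genes and A-type cyclins were then 0.22, 0.11 and 0.05. The interaction called 1 of the 19 S-phase genes and 0 of the A-type and B-type cyclins. For the other genes of these lists a difference between the days was thus not shown. For genes of these lists the MS leaves of day 9 were also low against those of day 10. There 6 of 10 B-type cyclins, 5 of 19 S-phase genes and 4 of 10 A-type cyclins were higher at day 10. Over all probe sets 11.5% were called between the MS days, 6.31% as lower at day 10. PCNA1 had a mean of 8.04 in the MS leaves of day 9, and of 8.99, 9.18 and 9.28 in the MS leaves of day 10 and the norflurazon leaves of days 9 and 10. For CYCD3;3 the means in the same order were 7.32, 7.49, 7.84 and 7.82. Of 7 mesophyll marker probe sets 3 were higher and 1 lower with norflurazon at day 9 (median 0.42), and of 8 vasculature markers 2 were lower and 0 higher, a count that was 1 without any of 5 of the 6 compared arrays. The part of these markers, and of the day 9 MS arrays, in the result was not tested.

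Of the immediate partners, 1 of 6 kinase genes and 0 of the 9 genes of RBR1 and the E2F, DP and DEL factors were called, where 7.43% of all probe sets were. CDKA;1 gave -0.04 ± 0.08 at day 9 (limma, adjusted p = 0.874), RBR1 0.19 ± 0.07 (0.166), E2FA 0.19 ± 0.13 (0.493), E2FB -0.04 ± 0.12 (0.923) and E2FC 0.03 ± 0.10 (0.933). The count of 0 became 2 without norflurazon day 9 replicate 3 and 1 without MS day 9 replicate 1. The kinase gene called was CDKD;3, at 0.46 ± 0.10. That count fell to 0 without norflurazon day 9 replicate 1 or 2 or MS day 9 replicate 1 or 3, and rose to 2 without norflurazon day 9 replicate 3.

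Among inhibitors 3 of 12 were higher, led by KRP3 at 0.84 ± 0.15 and KRP7 (AT1G49620) at 0.57 ± 0.14. SMR7 (AT3G27630), a SIM relative known to respond to oxidative stress, changed by -1.81 ± 0.27 (limma, adjusted p = 0.00212). It was dim with norflurazon, so this size may be understated. SMR7 stood apart only in the MS leaves of day 9, at a mean of 4.54, and was dim in the other 9 groups of the study. The count of higher inhibitors fell to 1 without norflurazon day 9 replicate 2 or MS day 9 replicate 2. Of the 13 regulators 3 were higher: ANT at 0.80 ± 0.16 (adjusted p = 0.00975), the cytokinin response regulator ARR10 (AT4G31920) at 0.62 ± 0.11, and FLP (AT1G14350), a MYB factor of the stomatal lineage, for which no size is given because it was dim in both groups. At day 10 ANT gave 0.53 ± 0.16 (adjusted p = 0.142). The mean of the leaf proliferation markers was 5.33 to 5.54 with norflurazon and 4.70 to 5.33 in MS leaves at day 9, and 5.19 to 5.53 against 4.80 to 4.99 at day 10, and its part in the CYCD3 difference was not tested.

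The interval from day 9 to day 10 was measured in 3 kinds of leaves. CYCD3;3, which fell by 0.73 in the untreated time course, gave 0.17 ± 0.09 in the MS leaves (interval -0.02 to 0.36, limma, adjusted p = 0.286) and -0.02 ± 0.09 in the norflurazon leaves. CYCD3;2, which fell by 0.51 in the time course, gave -0.15 ± 0.09 in MS leaves (adjusted p = 0.334) and -0.11 ± 0.09 with norflurazon. The experiments were fitted apart, so the difference between them was not tested.

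In the MS leaves 1 of 10 genes was called, the sucrose-responsive CYCD2;1, at -0.38 ± 0.10 (limma, adjusted p = 0.0297). Over all probe sets 11.5% were called there, 6.31% as lower. The call was lost without MS day 9 replicate 1 or 2 or MS day 10 replicate 2 or 3 (adjusted p = 0.0766, 0.11, 0.0984 and 0.108). It rests on the same MS day 9 arrays as the norflurazon comparison of that day. In the time course the gene gave -0.26 ± 0.15 over this interval (adjusted p = 0.361). In the norflurazon leaves 0 of the 10 genes were called and 0 had an unadjusted p under 0.05, where 1.96% of all probe sets were called.

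Other cell cycle genes had the following changes over this interval, and their difference between the kinds of leaves was not tested either. ANT changed by -1.05 ± 0.18 in the time course (adjusted p = 0.00407) and gave 0.12 ± 0.16 in MS leaves (0.755), and OBP1 changed by -1.22 ± 0.20 (0.00309) and gave -0.35 ± 0.14 (0.148). PCNA1 fell by 0.75 in the time course (-0.75 ± 0.14, adjusted p = 0.00653) and rose by 0.95 ± 0.12 in MS leaves (0.00044). Of the S-phase genes 10 of 19 fell and 0 rose in the time course, and 5 of 19 rose and 0 fell in the MS leaves. The mean of the leaf proliferation markers lay at 4.70 to 5.33 in MS leaves of day 9 and at 4.80 to 4.99 in those of day 10, where 0 of the 6 markers were called, and its part in these results was not tested.

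**Figure D5:**
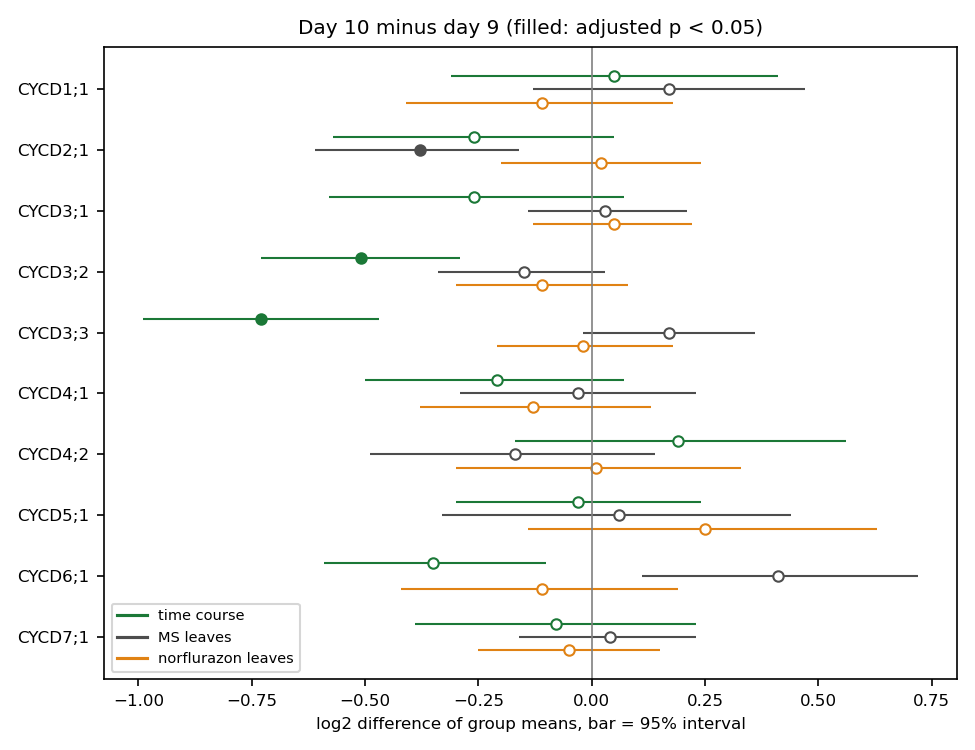
Log2 difference between day 10 and day 9 for each D-type cyclin gene in the untreated time course, in MS leaves and in norflurazon leaves, with 95% intervals of the limma fits and 3 arrays per day and kind of leaf. Filled points are called. CYCD3;3 lies at -0.73 in the time course and at 0.17 and -0.02 in the other leaves, and CYCD6;1 at -0.35, 0.41 and -0.11.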

How the data were processed

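Leaf 3 RNA of 30 samples was hybridised to 1 array each. Per the submitters' processing notes, the authors used RMA and TAIR9 for the deposited log2 values. The RMA version is not given in the sources used here. All table columns belonged to these samples, with 0 columns of other samples. Symbols came from a TAIR10.1 gene table, used for names only.

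Both experiments were fitted apart with limma 3.58.1 in R 4.3.3 (1 coefficient per group, contrasts, eBayes, 12 and 8 residual degrees of freedom) on all 30237 probe sets, without a filter, after a check on simulated data. The members, lists and tests were chosen with earlier results of these data known. Named genes are all 10 members, up to 3 called genes of each pathway list with the largest change per comparison, 6 given whatever their values, and the 3 profiles most like each member called in the F test. Other genes and the test of CYCD3 ratios were added after values were seen. Of the listed loci, 5 were dropped because the name table did not hold their name, and 1 of these was not measured.

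The main fits did not pair samples by repeat number, and the labels do not say whether same-numbered samples belong together. Deviations of same-numbered arrays from their group means gave r of -0.25 to 0.17 for the 45 pairs of the time course, where 2 exceeded 0.1. For the 18 pairs with norflurazon or MS, r was -0.06 to 0.09, and 0 exceeded 0.1. Such values cannot show that the samples were unpaired. Alternatives were a repeated quantile normalization, a fit of only the compared arrays, a filter on dim probe sets, replicate number as a block, and leaving out each array.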

Additional observations from a re-analysis of the deposited data

Results flagged for a closer look

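Over days 9 to 10, 2 of the 10 genes moved in opposite directions in the untreated time course and in the MS control leaves, with no overlap between the arrays of the days in either. CYCD3;3 changed by -0.73 in the time course and by 0.17 in the MS leaves. CYCD6;1 changed by -0.35 in the time course and by 0.41 in the MS leaves. The difference was not tested for either gene. Of all probe sets, 923 (3.05%) had such a pattern. Only the change of CYCD3;3 in the time course was called.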

How the results depend on the processing

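Each array group has 3 samples, and the deposited values hold no detection call, so dim refers to the array median and not to a background level. CYCD4;1 and CYCD4;2 were dim at day 13 and CYCD7;1 in every group, so their changes may be understated. In the time course CYCD2;1 and CYCD5;1 lay about as near to the array median as the CYCD4 genes, so the same limit may hold for them. Between days 13 and 8, and for norflurazon at days 9 and 10, no called change of a member turned its sign under the alternatives run, while 9 differences that were not called and lay near 0 did. Without 1 array, between days 13 and 8 CYCD2;1 ranged from -0.10 to 0.26 and CYCD7;1 from -0.10 to 0.08. For norflurazon at day 9 CYCD3;1 ranged from -0.08 to 0.03 and CYCD5;1 from -0.19 to 0.18. At day 10 CYCD1;1 ranged from -0.10 to 0.10, CYCD3;1 from -0.04 to 0.05, CYCD4;1 from -0.07 to 0.14, CYCD4;2 from -0.06 to 0.10 and CYCD7;1 from -0.10 to 0.04. After quantile normalization again CYCD7;1 gave -0.06 between days 13 and 8, and at day 10 CYCD1;1, CYCD3;1 and CYCD4;2 gave -0.06, -0.06 and -0.05. The number of members called between days 9 and 8 went from 0 to 2 with a filter on dim probe sets, and ranged from 0 to 2 without 1 array. Between days 10 and 9 it went from 2 to 0 in a fit of only the compared arrays and ranged from 1 to 2 without 1 array. With the dim filter it gained CYCD6;1 (limma, adjusted p = 0.0463). Between days 12 and 11 it went from 0 to 1 with the dim filter. Between days 13 and 12 it went from 2 to 1 after quantile normalization again, to 0 with only the compared arrays and to 0 with replicate number as a block. It ranged from 0 to 1 without 1 array, and with the dim filter it gained CYCD3;3 (limma, adjusted p = 0.0316). In the MS leaves it went from 1 to 2 after quantile normalization again and with the dim filter, to 0 with only the compared arrays, and ranged from 0 to 1 without 1 array. The cause was not tested, except that a fit of only the compared arrays has fewer samples and the dim filter tests fewer probe sets (15095 and 14925). Members called between days 13 and 8 ranged from 4 to 6 without 1 array, as did those of the F test, and the norflurazon count at day 9 stayed at 1. The counts over all probe sets ranged from 749 to 2266 between days 10 and 9, from 122 to 770 between days 13 and 12, and from 16 to 114 for norflurazon at day 10. The block changed no other count of members by more than 1.5 times.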
